A study of Rattus norvegicus with 56 samples.

Results

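The 99 genes described here code for splicing factors and other RNA-binding proteins. They were taken by symbol from the 10411 genes that the array's annotation named through probe sets with 1 symbol each, of which they are 0.951%. The symbols began with Hnrnp (16 genes), Srsf (7), Sf3 (8), Snrp (8), Prpf (10), Rbm and a digit (22) or Ddx and a digit (25), or were U2af1l4, U2af2 and Puf60. Each gene was read from 1 probe set, chosen for the highest mean over the 24 single-rat arrays. The choice used names and mean levels and no difference between groups, but it was made with earlier results of these data known. A further 10 probe sets that name such a gene beside another gene were left out, so that Hnrnpk, Srsf3, Snrpc and Snrpg have no value here.

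Introns are cut out of new transcripts by the spliceosome, which is assembled from small nuclear ribonucleoproteins (snRNPs), each a small RNA with its own set of proteins. The proteins named Snrp and Sf3 are subunits of snRNPs, the Prpf proteins join or hold together the assembled machine, and several DEAD-box helicases (Ddx) remodel its RNA pairings. SR proteins (Srsf) mostly promote the use of nearby exons, hnRNP proteins coat nascent transcripts and often block splice sites, and many RBM proteins tune the choice between alternative exons. The Ddx name covers more than splicing: 9 of the 25 (Ddx10, Ddx21, Ddx31, Ddx47, Ddx49, Ddx51, Ddx52, Ddx54 and Ddx56) are known for ribosome assembly.

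The material was mammary gland RNA from female rats of the inbred Wistar Furth strain, on single-colour Affymetrix arrays with 1 log2 signal per probe set. The labels name the groups RXR treatment and control; RXR is the usual short form of the retinoid X receptor, and neither the compound nor the dose or the age of the rats is given in the sources used here. Each of 12 treated and 12 control rats had an array of its own. The labels place 6 treated and 9 control rats in diestrus and the other 6 and 3 in proestrus or estrus. Labelled targets of the same rats were also mixed into 6 and 6 pools of 2, 4 and 4 pools of 3, and 1 treated and 1 control pool of 12 with 4 arrays each, so pools and single rats are not independent. Treated rat 3 and control rat 3 each had 2 repeat arrays. The gland is a mixture of cell types, so fewer cells of a type and less RNA per cell cannot be told apart.

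Promoters of 6 of the genes that fell are shown first, because many of the 99 genes share letters there that the choice by name did not use. RefSeq's promoter table of the rat build GRCr8 held 92 of the 99 genes, 17 of them among the 20 that fell. Each line gives the 120 bases before the listed start, 5′ to 3′ on the gene's strand, and the capitals mark matches to the 7 motifs searched. The listed start is not always the outer end of the gene in RefSeq. Only the Prpf6 window lies wholly outside its gene. Those of Rbm39, Hnrnph1, Ddx42 and Snrpe lie inside the gene, and that of Rbm3 overlaps it. The Hnrnph1 window begins at 35194513 and the gene at 35187412.

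Rbm39, chr3:165156236-165156355, minus strand: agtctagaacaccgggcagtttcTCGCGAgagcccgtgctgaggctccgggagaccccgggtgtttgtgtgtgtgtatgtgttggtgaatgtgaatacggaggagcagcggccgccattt
Rbm3, chrX:17020785-17020904, plus strand: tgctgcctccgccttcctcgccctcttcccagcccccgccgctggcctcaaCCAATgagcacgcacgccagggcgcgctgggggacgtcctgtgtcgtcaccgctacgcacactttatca
Hnrnph1, chr10:35194513-35194632, plus strand: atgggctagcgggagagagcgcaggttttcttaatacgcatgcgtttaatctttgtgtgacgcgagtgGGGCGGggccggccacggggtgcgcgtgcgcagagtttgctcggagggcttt
Prpf6, chr3:189084345-189084464, plus strand: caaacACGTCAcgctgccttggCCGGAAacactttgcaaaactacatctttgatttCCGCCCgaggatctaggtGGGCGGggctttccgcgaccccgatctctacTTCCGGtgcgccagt
Ddx42, chr10:91649116-91649235, plus strand: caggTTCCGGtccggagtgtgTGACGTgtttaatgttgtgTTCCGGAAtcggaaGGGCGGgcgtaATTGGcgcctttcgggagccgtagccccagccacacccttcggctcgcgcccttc
Snrpe, chr13:47609252-47609371, minus strand: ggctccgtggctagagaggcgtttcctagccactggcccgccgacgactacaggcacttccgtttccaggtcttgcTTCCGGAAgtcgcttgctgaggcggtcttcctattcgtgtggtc

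The motifs were searched on both strands of the 250 bases before the first listed start. The letters CCGGAA, the core bound by ETS factors, stood in 41 of the 92 promoters (44.6%), against 21.6% of the 8610 promoters of all named genes on the array. Prpf6 and Ddx42 hold them more than once, and in Ddx42 and Snrpe 2 matches overlap on opposite strands as TTCCGGAA. TGACGT, part of the cyclic AMP response element, was found in 21.7% of the 92 promoters against 9.81% of all, and CCAAT in 51.1% against 35.4%. GGGCGG, the GC box, stood in 50% against 56.2%, and TATAAA in 5.43% against 8.35%. The remaining searches were for TCGCGA (5.43% against 3.93%) and for AGGTCA, the core site of nuclear receptors (7.61% against 11.4%, and 0 of the 17 that fell). Among the 17 that fell, CCGGAA stood in 47.1% and CCAAT in 52.9%, close to the shares of all 92. A match of letters is a description of the window and not a binding site.

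The first comparison asked how the transcripts of these genes differed between treated and control rats. After treatment 20 of the 99 genes were lower and 0 were higher (limma, adjusted p under 0.05 over all 15866 probe sets). The 20 falls lay between -0.15 and -0.35 log2, which is 9.98% to 21.7% less signal. All 8 families had at least 1 gene among them. In the whole array 9.59% of probe sets were lower and 8.46% higher, or 10.4% lower with 1 probe set per gene. Of the 99 genes 86 had a difference below 0 (86.9%, against 51.1% of all probe sets), and their median was -0.11 log2 against 0.00 over all probe sets. At an unadjusted p under 0.05, 39 were lower and 2 higher (Rbm38 and U2af1l4), against 16.4% and 12.7% of all probe sets. The exact rank-sum test called 16 lower and 0 higher, and the share of all probe sets under that test was not counted.

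**Figure D1:**
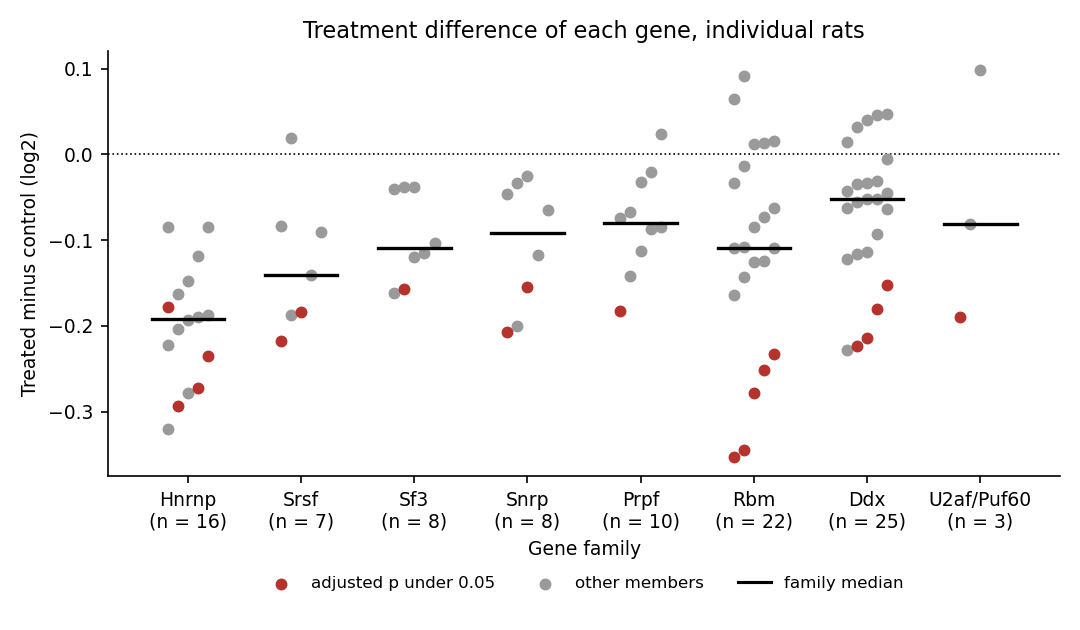
Treated minus control difference in log2 signal (vertical axis) of each of the 99 genes in individual rats, by gene family (horizontal axis); red points passed an adjusted p of 0.05, grey points did not, and black bars are family medians. Every family median lies below 0, from -0.19 for Hnrnp to -0.05 for Ddx, and no red point lies above 0.

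Of the 22 Rbm genes 5 fell, and these included the pair with the largest falls of the 99. Rbm39 codes for an SR-like factor that works with the proteins recognising the splice acceptor. Its level was 10.26, 10.54 and 10.93 log2 (lowest, median, highest) in the 12 treated rats and 10.46, 10.90 and 11.37 in the 12 controls. Of the treated rats 11 lay below the control median, and the ranges overlapped. The difference was -0.35 ± 0.09 log2 (SE, n = 12 and 12; limma, adjusted p = 0.00469). Its other 3 probe sets were each lower as well, by -0.25, -0.29 and -0.28 log2.

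Rbm3, a cold-inducible RNA-binding protein, ranged from 10.81 to 11.25 (median 10.95) in treated rats and from 11.07 to 11.54 (median 11.39) in controls. All 12 treated rats were below the control median and 9 below the lowest control. The difference was -0.34 ± 0.06 log2 (limma, adjusted p = 0.000295). Rbm5, a tumour-suppressor splicing regulator that is a close relative of Rbm10, ran from 9.95 to 10.56 (median 10.24) against 10.31 to 10.75 (median 10.48). Here 9 treated rats lay below every control, and 1 treated rat at 10.56 stood above the control median. It fell by 0.28 ± 0.06 log2 (limma, adjusted p = 0.00123), and Rbm10 by 0.23 ± 0.05 (0.00184). Rbm12b was the fifth, at -0.25 ± 0.07 log2 (limma, adjusted p = 0.00743), with levels of 5.75 to 6.43 in treated and 6.04 to 6.50 in control rats. The other 17 Rbm genes ran from -0.16 to 0.09 log2 and did not pass the test.

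All 16 Hnrnp genes had a difference below 0, with the lowest family median, -0.19 log2, and 4 passed the test. Hnrnph1, whose protein binds runs of G in transcripts, was between 10.39 and 10.95 (median 10.77) in treated rats and between 10.85 and 11.14 (median 11.02) in controls. Each treated rat was below the control median, and 8 were below the lowest control. The difference was -0.29 ± 0.06 log2 (limma, adjusted p = 0.000394). Its paralog Hnrnph3 fell by 0.23 ± 0.05 (adjusted p = 0.00259), again with all 12 treated rats below the control median. Hnrnpul1, a relative of the nuclear scaffold protein gene Hnrnpu, fell by 0.27 ± 0.06 (0.00149). For Hnrnpul1, 1 treated rat at 8.77 topped all controls, whose highest was 8.76. Hnrnpl, which binds CA-rich stretches, was lower by a smaller -0.18 ± 0.06 log2 (limma, adjusted p = 0.0357).

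Hnrnpa1, a classic repressor of splice sites, had a larger difference than most of these but did not pass. Its level ran from 8.67 to 10.05 (median 9.37) in treated rats and from 9.02 to 10.28 (median 9.84) in controls, and the difference was -0.32 ± 0.16 log2 (limma, adjusted p = 0.202). In this gene the SD between rats of a group was 0.43, against an SD of 0.11 between repeat arrays. On probe sets that were not used for the count, Hnrnpa1, Hnrnpa2b1, Hnrnpa3, Hnrnpdl and Rbm24 each had at least 1 that was lower, so 25 of the 99 genes were lower on some probe set. A gene with several probe sets has more chances to pass, and the share of all genes under that rule was not counted. Over the 33 probe sets not used, 24 were below 0, 9 were lower and 0 higher, and no gene had probe sets called in opposite directions.

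Of the 7 SR protein genes 2 fell. Srsf5 ran from 10.10 to 10.64 (median 10.31) in treated and from 10.31 to 10.87 (median 10.52) in control rats, with 10 treated rats below the control median. The difference was -0.22 ± 0.07 log2 (limma, adjusted p = 0.0335), and that of Srsf11 was -0.18 ± 0.06 (0.0323). Srsf1, the founding SR protein, was at -0.08 ± 0.08 and did not pass (adjusted p = 0.575).

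Among snRNP subunits the falls were small. Snrpe, 1 of the Sm ring proteins shared by most snRNPs, fell by 0.21 ± 0.06 log2 (limma, adjusted p = 0.025). Snrpb2, a protein bound to the RNA of a single snRNP, was lower by -0.16 ± 0.05 (0.0408). Of the 8 Sf3 genes, whose products grip the branch site, only Sf3b2 passed (-0.16 ± 0.05; limma, adjusted p = 0.0354). Sf3b1, the largest subunit of that complex, showed -0.16 ± 0.06 without passing (0.0743). On its other probe set Sf3b2 showed -0.04 ± 0.06 and did not pass (limma, adjusted p = 0.723). All 16 Snrp and Sf3 genes were below 0, with medians of -0.09 and -0.11 log2.

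Prpf6, which bridges parts of the tri-snRNP, had the smallest p of the 99 genes. Its level was 8.80, 8.90 and 9.05 log2 (lowest, median, highest) in treated rats and 9.03, 9.11 and 9.19 in controls. All 12 treated rats were below the control median and 10 below the lowest control, and the ranges touched over 0.02 log2 only. The difference was -0.18 ± 0.03 log2 (limma, adjusted p = 0.000143), 11.9% less signal. Its 9 namesakes did not pass; Prpf40b came closest at -0.11 ± 0.04 (adjusted p = 0.0603).

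Among the 25 Ddx genes 4 fell. Ddx42, a helicase of the snRNP at the branch site, was at -0.22 ± 0.05 log2 (limma, adjusted p = 0.00163), with all 12 treated rats below the control median. Ddx5, an abundant helicase and transcription cofactor, ran from 11.05 to 11.32 (median 11.15) against 11.11 to 11.46 (median 11.36). It too was below the control median in each treated rat, and fell by 0.18 ± 0.04 log2 (0.00147). On their other probe sets Ddx42 showed -0.16 ± 0.10 log2 and Ddx5 -0.13 ± 0.07, and neither passed (limma, adjusted p = 0.3 and 0.213). Ddx39b, which acts in splicing and mRNA export, and Ddx23, a tri-snRNP helicase, fell by 0.21 ± 0.06 (0.0142) and 0.15 ± 0.03 (0.00216). None of the 9 helicases of ribosome assembly passed; they lay between -0.12 and 0.04 log2. That grouping was made with the values known, and it carries no test. In the last group Puf60, which helps to recognise the splice acceptor, fell by 0.19 ± 0.05 (limma, adjusted p = 0.00691), and U2af2, its partner at that site, showed -0.08 ± 0.03 (0.111).

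**Figure D2:**
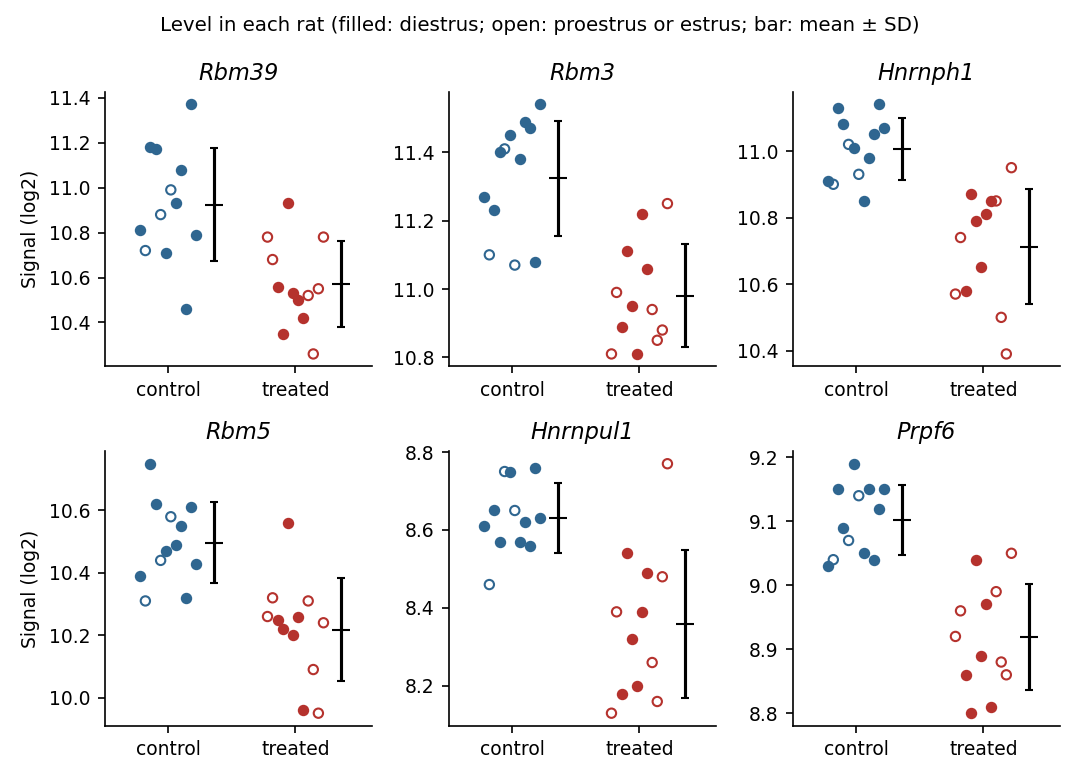
Level (log2 signal, vertical axis) of 6 genes in each of the 12 control (blue) and 12 treated (red) rats; filled points are rats in diestrus, open points rats in proestrus or estrus, and the bars give mean ± SD. The treated rats sit lower in all 6 panels, and in each panel the ranges of both groups still overlap.

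Genes of the same pathway outside the name rule were mostly below 0 as well. A list of 103 further splicing genes, made with earlier results known, had 80 members on the array. Of these 21 were lower and 1 higher, with 69 below 0 and a median of -0.09 log2. Over all genes, with 1 probe set each, 10.4% were lower and 51.8% below 0. The smallest p-values belonged to Son (-0.28 ± 0.05) and Srrm2 (-0.28 ± 0.06), scaffold proteins of nuclear speckles, to the nuclear matrix protein gene Matr3 (-0.27 ± 0.06) and to Acin1 (-0.16 ± 0.04), with limma adjusted p-values of 0.000278, 0.0018, 0.00135 and 0.00248. Clk1, Clk2 and Clk4, kinases that phosphorylate SR proteins, were each lower, by -0.36, -0.18 and -0.32 log2, and so was Srpk2 of the other such family, by -0.14. Clk3 (-0.04 ± 0.05; limma, adjusted p = 0.65) and Srpk1 (-0.09 ± 0.07; 0.42) did not pass. The 1 gene that rose was Lsm8, a subunit of a ring that binds small nuclear RNA, at 0.34 ± 0.08 (adjusted p = 0.00521). Except for the 4 smallest p-values, these genes were picked after their values were seen.

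Cell type markers moved with the treatment too. Of 14 adipocyte markers 9 were higher and 1 lower (median 0.53 log2), and their mean level ran from 10.08 to 11.16 in treated against 9.86 to 10.77 in control rats. The list was split: Gpd1 (1.17) and Aqp7 (1.10) rose most, Plin1, Plin4, Cidea and Cd36 did not pass, and Cfd was lower (-0.69). Of 15 luminal epithelial markers 8 were lower (median -0.26; mean level 8.69 to 9.07 against 8.98 to 9.21), and of 11 basal markers 5 were lower and 1 higher (median -0.35; 9.26 to 9.86 against 9.52 to 10.13). Of 12 cell cycle genes 0 passed in either direction (median -0.09), and their mean level ran from 6.90 to 8.46 in treated and from 6.85 to 8.08 in control rats. The part of these shifts in the falls of the 99 genes was not tested.

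The mean of the 99 genes was 8.49, 8.65 and 8.84 log2 (lowest, median, highest) in the treated rats and 8.65, 8.77 and 8.95 in the controls. Treated rats 11, 7 and 4 had the lowest means, 8.49, 8.49 and 8.52, and the highest mean levels of the adipocyte markers, 11.01, 11.16 and 11.02. Treated rat 11 also had the largest difference between the 3′ and 5′ control probe sets of Actb and Gapdh, 1.29 log2, where the other rats lay between 0.74 and 1.02. With that difference as a covariate 18 genes were lower. Leaving out 1 rat at a time gave 15 to 29 lower genes and a median between -0.12 and -0.08, and 15 of the 20 passed each time. The 4 rats whose numbers occur in 1 group only (treated rats 4 and 7, control rats 13 and 15) were chosen after seeing the data. Without them 13 genes were lower, 68 of 99 were below 0 and the median was -0.05. The shares of all probe sets in these refits were not counted, so the counts are not set against the whole array.

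The pools hold the same rats, so their values stand beside those of single rats as a second reading of them and not as new animals. In pools of 2, 7 of the 99 genes were lower and 0 higher (limma; 3.67% and 5.15% of all probe sets), and in pools of 3, 2 were lower and 0 higher (2.97% and 3.26%). At an unadjusted p under 0.05 these were 22 lower and 1 higher in pools of 2 (10.8% and 10.02% of all probe sets), and 25 lower and 0 higher in pools of 3 (12.6% and 6.47%). The 7 were Rbm39, Rbm3, Hnrnph1, Rbm5, Hnrnph3, Ddx42 and Ddx5, and the 2 were Rbm39 and Rbm5, all among the 20 of single rats. Below 0 lay 83 of the 99 genes in pools of 2 (median -0.09), where 51.6% of all probe sets did (median 0.00). In pools of 3 these were 89 genes (median -0.12) and 63.6% of all probe sets (median -0.04), and in the pool of 12 they were 77 genes (median -0.07) and 58.7% (median -0.02). Control array 3 of the repeats of the pool of 12 had a technical score (its place on the main axis of differences between repeat arrays) of 12.4, where the other 3 arrays of its mixture lay between -11.1 and -8.44. Without it 80 genes (median -0.10) and 49.9% of all probe sets (median 0.00) were below 0 there. The count in pools of 2 fell to 2 or 3 without treated replicate 2 or 4 or without control replicate 2, 4 or 5. That in pools of 3 was 4 without control replicate 2 and 1 without treated replicate 1 or 2 or without control replicate 1, 3 or 4.

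Rbm39 read 10.58, 10.73, 10.72 and 10.69 log2 in the 4 treated pools of 3, and 10.94, 11.06, 11.14 and 10.99 in the 4 control pools. Every treated pool was below every control pool. The difference was -0.35 (limma, adjusted p = 0.00982), with -0.28 in pools of 2 (0.0384) and -0.29 in the pool of 12. Rbm5 read 10.17, 10.30, 10.30 and 10.43 in treated and 10.58, 10.52, 10.62 and 10.58 in control pools of 3, again without overlap. It differed by -0.28 (adjusted p = 0.035), by -0.35 in pools of 2 (0.00719) and by -0.24 in the pool of 12. The 4 arrays of the pool of 12 repeat 1 mixture per group, so that difference has no test.

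All 20 genes that fell in single rats were below 0 in pools of 2 and of 3, and 19 of them in the pool of 12. The exception was Srsf11, at -0.18, -0.15, -0.15 and 0.06 log2 in the 4 kinds of array. Without control repeat array 3 of the pool of 12 the last of these was -0.02, and all 20 were below 0. Rbm12b shrank most from single rats to pools of 2, from -0.25 to -0.03.

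**Figure D3:**
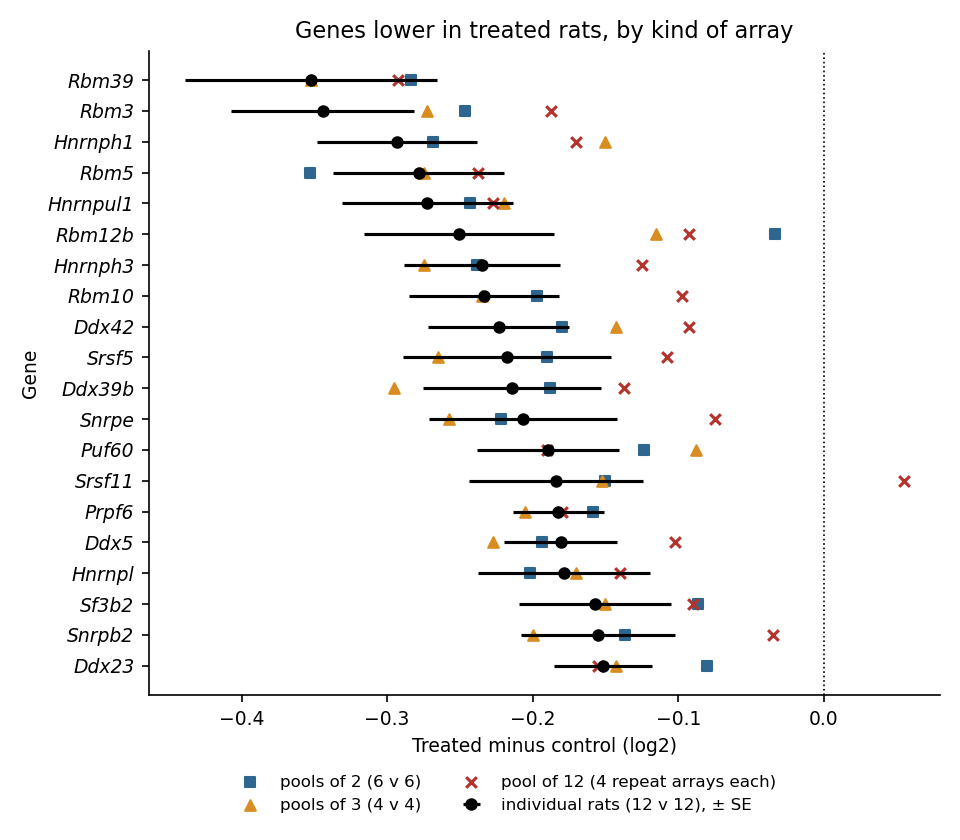
Treated minus control difference in log2 signal (horizontal axis) of the 20 genes that were lower in individual rats (vertical axis), for individual rats (black, ± SE), pools of 2 (squares), pools of 3 (triangles) and the pool of 12 (crosses). All points but the pool of 12 of Srsf11 lie left of 0.

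Oestrous stage was compared with treatment as a covariate. No gene of the 99 differed between diestrus and proestrus or estrus (limma; 0% of all probe sets were called), and 1 had an unadjusted p under 0.05. That was Ddx50, at -0.11 ± 0.05 log2 outside diestrus (unadjusted p = 0.0456). Next came Srsf6 (-0.11 ± 0.06; 0.0701) and Sf3b1 (-0.11 ± 0.06; 0.0852).

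The treatment difference itself did not pass a test of change between stages for any gene (limma; 0% of all probe sets), and 1 of the 99 had an unadjusted p under 0.05. Rbm18 showed -0.09 log2 in diestrus and 0.22 outside it, an interaction of 0.32 ± 0.09 (unadjusted p = 0.00223). Puf60 followed with -0.28 and -0.09 (0.19 ± 0.10; 0.0537) and Srsf9 with -0.17 and 0.02 (0.20 ± 0.10; 0.0653). Among rats in diestrus alone 13 genes were lower (4.43% of all probe sets), with a median of -0.13 (-0.01 over all probe sets). Outside diestrus, with 6 treated and 3 control rats, 0 genes passed. At an unadjusted p under 0.05, 11 were lower and 1, Rbm18, higher (5.76% and 7.39% of all probe sets). Below 0 were 78 of the 99 (median -0.06), against 52.4% of all probe sets (median -0.01). The 20 genes were below 0 in both stages, but they had been picked for their fall over these same rats.

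Rats of 1 group also differed among themselves, and many of the 99 genes did so together. Over the 24 rats, as deviations from the group mean, the median correlation of the 4851 pairs was r = 0.33, with 74.8% above 0, against 0.00 and 50.5% for all genes. These pairs share arrays and normalization, and the values are a description. Of the 28 genes with r over 0.8 against the mean of the others, among them Hnrnpu, Rbm8a and Srsf1, 3 were among the 20, and of the 13 with r below 0 another 3 were, Rbm5, Rbm39 and Srsf5.

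The same axis ran with the cell cycle list, which holds Mki67, Top2a and similar genes of dividing cells. Over the 24 rats the median r of the 99 genes with the mean of that list was 0.56, against 0.03 for all genes, and 56 of the 99 exceeded 0.5, against 15.5% of all genes. Hnrnpab (0.93), Snrpb (0.92) and Sf3b3 (0.89) were highest. Among the 20 genes that fell the median r was 0.29, and 8 of them were below 0, led by Srsf5 (-0.64), Rbm5 (-0.44) and Rbm39 (-0.38). Prpf39, at -0.67, was lowest of all and did not pass for treatment. With the adipocyte markers the median r was -0.39 and with the luminal markers 0.35, against -0.09 and 0.00 for all genes. With the 3′ to 5′ difference it was -0.24, against -0.04. The highest and lowest were named after their values were seen.

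**Figure D4:**
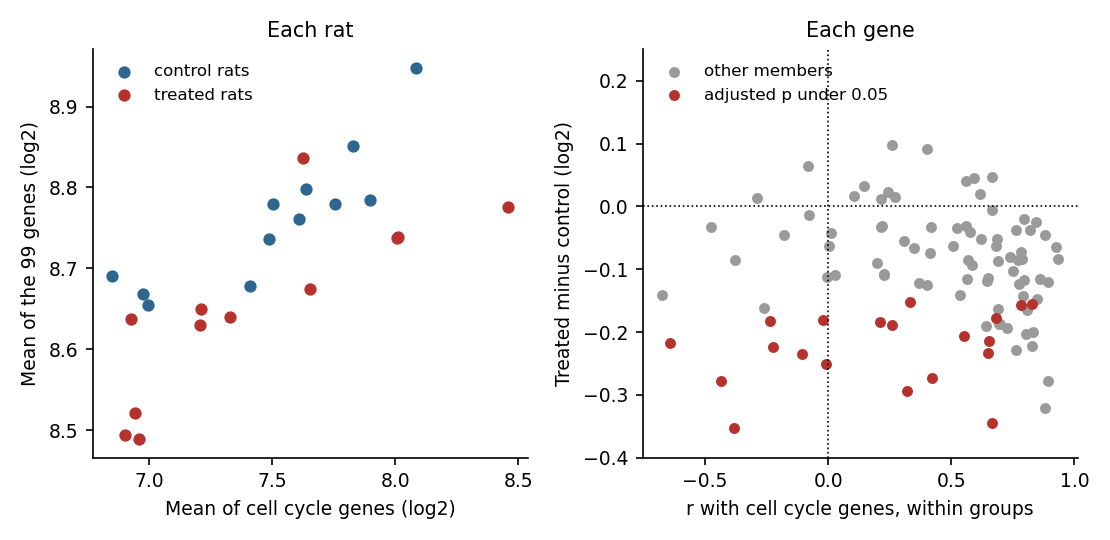
Left, mean log2 signal of the 99 genes (vertical axis) against that of the cell cycle list (horizontal axis) in each control (blue) and treated (red) rat. Right, treatment difference in log2 (vertical axis) of each gene against its correlation with the cell cycle list within groups (horizontal axis); red points passed an adjusted p of 0.05. Rats with more cell cycle signal mostly had a higher mean, and 8 of the 20 red points have an r below 0.

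The spread between rats could be set against repeat arrays of the same rat or the same pool of 12. The ratio of both SDs had a median of 1.36 over the 99 genes and 1.27 over all genes. It was highest for Snrpa, a protein of the snRNP that marks the donor site, with an SD of 0.37 between rats of a group and 0.07 between repeats, a ratio of 5.32. Hnrnpa1 (4.07) and Sf3b3 (3.85) came next. Snrpa ran from 7.78 to 8.88 in treated rats and from 7.73 to 8.86 in controls, nearly the same range, and its treatment difference was -0.05 ± 0.14 log2 (limma, adjusted p = 0.886).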

How the data were processed

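Per the labels, 5 µg of total RNA of each gland was made into labelled, fragmented cRNA, and pools were mixed from these targets to 10 µg. The deposited values were taken as log2 signals, an inference from their range of 4.12 to 14.1; software and normalization: not given in the sources used here. No further normalization was applied. The array medians lay between 7.40 and 7.48. Title and description call 3 repeat arrays per group pools of 12 where the source label says individual; the former were used.

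The 57 control probe sets were left out. Of the other 15866, 12783 had 1 symbol in the platform annotation, 312 several and 2771 none listed, and 12748 matched RefSeq (GRCr8) by Entrez ID. The treatment test, limma's lmFit with eBayes, ran separately in 24 single-rat arrays, pools of 2 and pools of 3, and stage and its interaction in single rats, with Benjamini-Hochberg adjustment over all probe sets and a threshold of 0.05. In single rats the p-values rest on the spread between rats and arrays together, and in the pools on that between pools. The number of arrays limits the precision. The fits and the exact rank-sum test were tested on simulated data. The technical score is each array's place on the main axis of differences between repeat arrays (57.3% of their variance). Motif searches used the first start listed for a gene; 7 of the 92 matched genes had several.

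Members and lists were chosen with earlier results of these data known. Named were the 10 largest rises and falls among called members, the 2 smallest p of each family, the 3 smallest p for stage and for the interaction, the 3 largest ratios of SDs, members with opposite probe sets, and the 4 smallest p of the further splicing list; other genes were named after their values were seen, Hnrnpl, Ddx39b and Ddx23 to complete the 20. Alternatives covered normalization, a dim filter at the 25th percentile, the prior, array weights, covariates, stages, rat 3, thresholds, probe set choice and left-out arrays. The fibroblast, endothelial, lymphocyte and macrophage lists had 1, 0, 0 and 2 genes higher and 0, 1, 0 and 1 lower of 11, 6, 8 and 6. Software was limma 3.58.1 in R 4.3.3, and pandas 2.3.3, matplotlib 3.10.9, numba 0.67.0, scipy 1.17.1 and numpy 2.4.6 in Python 3.11.15.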

Additional observations from a re-analysis of the deposited data

Results flagged for a closer look

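In the control pool of 3 made from rats 12, 14 and 15, Ddx39b read 10.38 log2, and the nearest of the other 3 control pools 10.57. That gap was 0.864 of the group's range, above Dixon's critical value for 4 samples. In the same pool Srsf5 read 10.47 against 10.62 in the nearest, a gap of 0.833 of the range. These were 2 of 84 tests, over the 20 genes that fell and the mean of the 99 in 4 groups of pools, and chance gives about 1 in 20 groups.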

How the results depend on the processing

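In single rats the count of 20 lower genes became 36 with array weights, 13 in diestrus only, 0 outside diestrus (a setting added after seeing the data) and 13 at an adjusted p of 0.01. Under median centring 1 gene was higher, Rbm38 (0.10 log2, adjusted p = 0.0487). With array weights, all 20 genes were among the 36. Leaving out 1 rat gave 15 to 29 lower and 0 to 1 higher. Of the treatment settings in this section, the share of all probe sets called was counted for diestrus only. Median centring, quantile normalization, the dim filter, the prior, stage, technical score or the 3′ to 5′ difference as covariates, the mean of 3 arrays for rat 3, the choice of probe set, 1 probe set per gene and the rank-sum test gave 15 to 26 lower.

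Rat numbers are shared by 10 treated and 10 control rats. The numbers are not stated to pair rats, so they were not taken as pairs. Deviations of same-numbered rats correlated with r between -0.39 and 0.36. These values are given without those of differently numbered rats, so they cannot decide whether rats were paired. With rat number as a replicate block, 14 genes were lower; the same 20 rats without the block (added after seeing the data) gave 13, of which 12 were among the 20 genes.

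In pools of 2, quantile normalization gave 11 lower and 1 higher, and leaving out 1 pool gave 2 to 8 lower and 0 to 1 higher. In pools of 3 the count of 2 became 1 under median centring, 13 with the technical score as a covariate and 6 with array weights, and 1 to 4 without 1 pool. For stage and for the interaction, an unadjusted p of 0.05 gave 1 gene each. In single rats the 20 genes that fell stayed below 0 in all 38 alternative fits, which reuse the rats that picked them. Of the 31 named genes, 3 that did not pass changed sign in some of them: Rbm18 (-0.09 to 0.22 log2), Snrpa (-0.13 to 0.11) and Srsf9 (-0.18 to 0.02). The cause of these changes was not tested.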
